A study of Mus musculus with 12 samples.

Results

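The Nanog locus on mouse chromosome 6 holds 4 genes described here, Nanog, Dppa3, Gdf3 and Apobec1. Its Mediator regions were found by merging the 4 peak lists of a protein wherever peaks overlapped by 1 bp or more and keeping the regions whose nearest protein-coding gene span, within 100 kb, was one of the 4 genes. The spans in build GRCm38 are chr6:122577792-122603024 for Apobec1, chr6:122605403-122610087 for Gdf3, chr6:122626424-122630271 for Dppa3 and chr6:122707489-122714633 for Nanog. This gave 35 of 65291 MED1 regions (16 at Nanog, 8 at Dppa3, 5 at Gdf3 and 6 at Apobec1) and 26 of 66123 MED24 regions (12, 8, 3 and 3). The series is a ChIP-seq study of E14tg2a mouse embryonic stem cells of 129SV background that stably carry a cRAF-ErT2 cassette, in which 4-hydroxytamoxifen (4OHT) activates RAF and through it ERK. The 4 groups are MED1 after 2 h of 250 nM 4OHT, MED1 in untreated cells (0 h), MED24 after 2 h of 250 nM 4OHT and MED24 in untreated cells, each as 1 library from clone a and 1 from clone b. All of these cells had grown with serum, LIF and 2 µM Chir99021 and had then spent 24 h in serum and LIF with 250 nM PD173074, an FGF receptor inhibitor, and MED24 was precipitated through a FLAG tag. A vehicle control and a line without the cassette were not analysed here, which means that effects of 4OHT itself, of the elapsed time and of active ERK cannot be told apart. The 4 input samples were not analysed here either.

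Mediator is the large complex that carries signals from factors bound at enhancers to RNA polymerase II, and MED1 and MED24 are subunits of its middle and tail parts. Nanog encodes a homeodomain factor that sustains naive pluripotency and is known to be turned down by FGF and ERK signalling. Dppa3, also called Stella, encodes a protein that protects the maternal genome from demethylation in the zygote and is a marker of naive stem cells and germ cells. Gdf3 encodes a TGF-beta family ligand of the Nodal branch, and Apobec1 the cytidine deaminase that edits Apob mRNA in the gut. Nanog, Dppa3 and Gdf3 are expressed together in pluripotent cells, and the stretch between Dppa3 and Nanog holds enhancers that have been described to act on both.

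The peaks are those of single libraries, and the lists held 37483 to 48931 peaks that covered 20.8 to 27.4 Mb. The lists give no read numbers, so depth is unknown. Strength is therefore given as the percentile of the best peak of a region among all peaks of its own library (100 is the strongest), by −log10 p for MED1 and by the deposited score for MED24. A region was counted as gained when called in both 2 h libraries and no 0 h library, as lost in the opposite case, and as retained when called in all 4. Of the marker genes of the labelled cell type, all 15 genes of the naive pluripotency list and all 10 of the core pluripotency list had a retained MED1 region (14 and 10 in MED24), against 2 of 10 fibroblast genes (3 in MED24) and 8 of 13 primitive endoderm genes (9 in MED24).

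The promoter of Nanog is shown because its Mediator region differed most in width and rank between the times among the retained regions of this gene, and that of Apobec1 because untreated cells had MED1 peaks over it that treated cells lacked. Both are RefSeq windows of 300 bases in build GRCm38.p6, from 250 before to 50 after a transcript start, read 5′ to 3′ along the gene; Dppa3 and Gdf3 are named only. The Nanog window lies at chr6:122707239-122707538 on the plus strand and the Apobec1 window at chr6:122602395-122602694 on the minus strand. Capitals mark every match, on either strand, to 9 short motifs.
Nanog: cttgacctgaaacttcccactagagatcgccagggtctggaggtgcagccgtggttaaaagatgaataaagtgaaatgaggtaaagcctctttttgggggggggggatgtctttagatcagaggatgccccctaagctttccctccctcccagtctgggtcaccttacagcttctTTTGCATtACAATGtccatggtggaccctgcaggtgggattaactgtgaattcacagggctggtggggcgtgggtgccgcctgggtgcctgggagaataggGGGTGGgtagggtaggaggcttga
Apobec1: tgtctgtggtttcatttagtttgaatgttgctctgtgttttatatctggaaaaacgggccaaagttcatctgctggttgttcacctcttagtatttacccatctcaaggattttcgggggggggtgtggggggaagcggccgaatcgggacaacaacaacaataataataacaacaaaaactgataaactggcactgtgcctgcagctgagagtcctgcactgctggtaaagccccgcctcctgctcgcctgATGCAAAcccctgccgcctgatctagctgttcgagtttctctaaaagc

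The motifs searched were an octamer with a free base (ATGCNAAT), its core (ATGCAAA), a SOX core (ACAATG), a KLF core (CCACCC), an ESRRB site (AAGGTCA), an ETS core (CCGGAA), a TCF core (CTTTGA), a STAT palindrome (TTCNNNGAA) and an AP-1 site (TGANTCA). The octamer core was added after the Nanog sequence had been seen. In the Nanog window the octamer core matched on the reverse strand at bases 176 to 182, directly followed after 1 base by the SOX core at bases 184 to 189, upstream of the transcript start, and the KLF core matched on the reverse strand at bases 277 to 282. Octamer and SOX elements set side by side in this way are known as the site where POU5F1 and SOX2 bind the Nanog promoter. In the Apobec1 window only the octamer core matched, at bases 253 to 259. Of 32851 promoter windows in the table, 4.63% held the octamer core, 12.6% the SOX core and 31.5% the KLF core. The other 6 motifs had no match in either window, and were found in 3.15% (octamer with a free base), 4.72% (ESRRB), 14.9% (ETS), 16.0% (TCF), 8.30% (STAT) and 7.81% (AP-1) of all windows. A match is a run of letters, and no binding of these factors was measured here. The MED1 peaks covered 278 (clone a) and 300 (clone b) of the 300 bases of the Nanog window at 2 h, and all 300 in each 0 h library. Over the Apobec1 window they covered 0 and 0 bases at 2 h against 91 and 252 bases at 0 h. MED24 peaks covered the Nanog window entirely in all 4 libraries, and 12 and 0 bases of the Apobec1 window at 2 h against 87 and 0 at 0 h.

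MED1 regions over and behind Nanog were fewer and narrower after 4OHT. In bulk cells, fewer cells with Mediator at a site and less Mediator per cell cannot be told apart. All MED1 regions of Nanog together covered 4011 and 4610 bases at 2 h in clones a and b, against 11311 and 11519 bases at 0 h. The means were 4310.5 ± 424 bases at 2 h and 11415 ± 147 bases at 0 h (SD, n = 2 each), a ratio of 0.378, and the groups differed by far more than the clones did. MED24 covered 3777 and 4533 bases at 2 h, against 7005 and 6497 bases at 0 h, with means of 4155 ± 535 and 6751 ± 359 (SD, n = 2 each), a ratio of 0.615. Over the whole genome the covered bases were higher or nearly equal, with MED1 at 1.05 times the 0 h value in clone a and 1.20 times in clone b, and MED24 at 0.981 and 1.28 times.

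**Figure D1:**
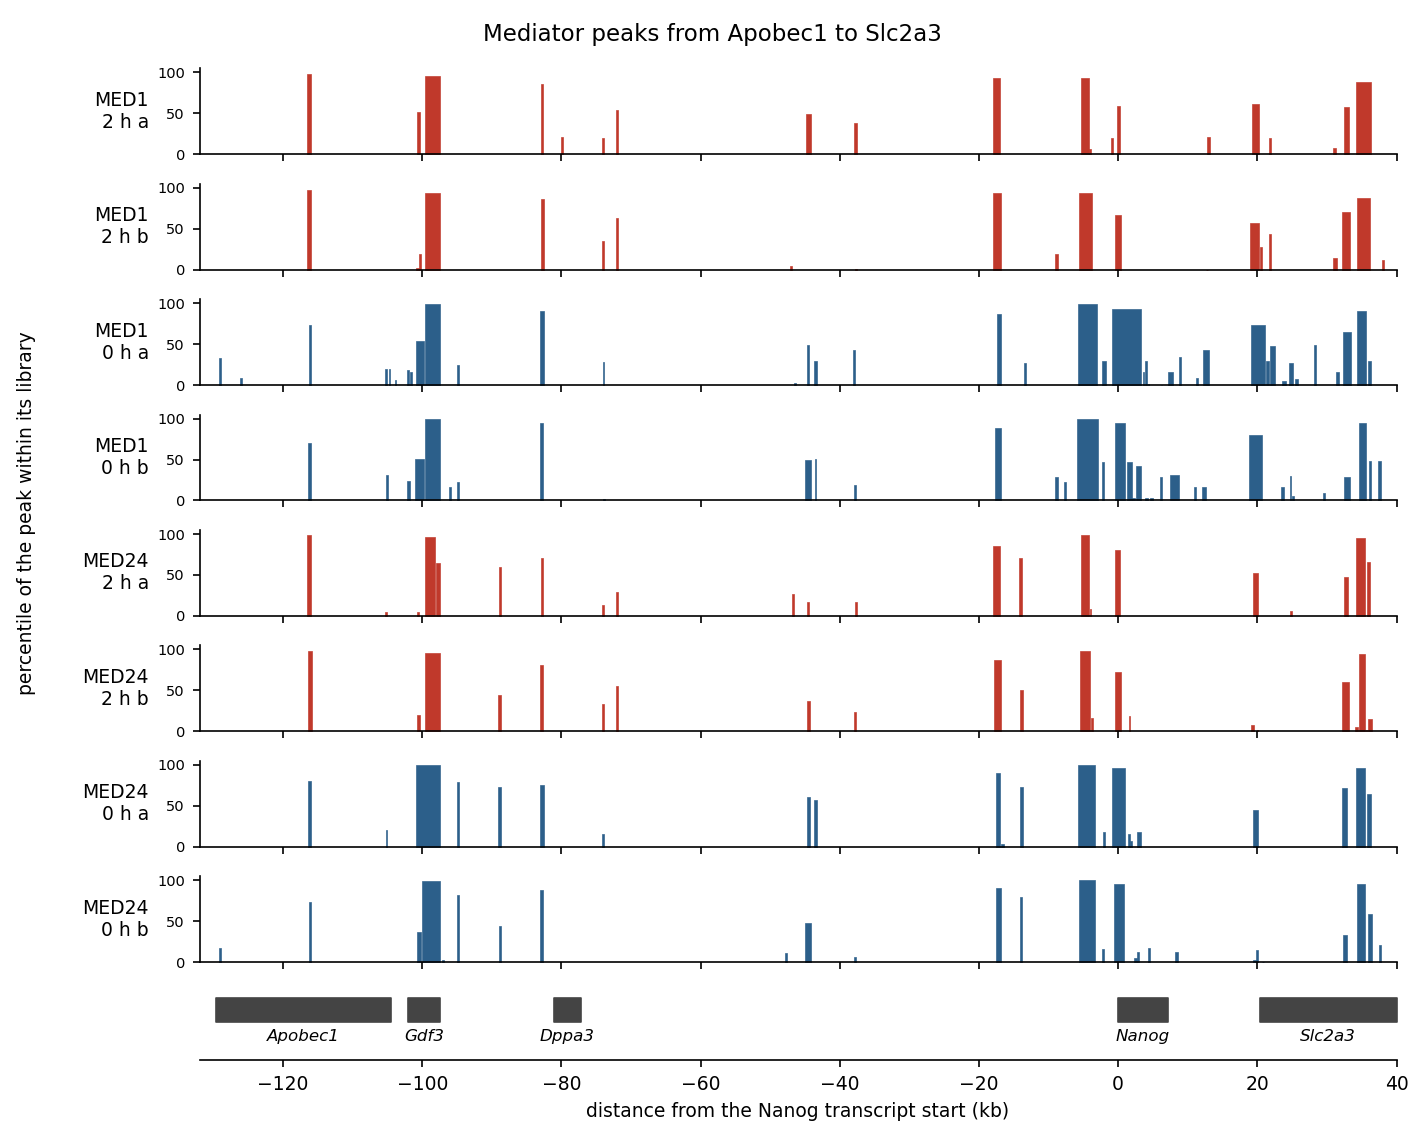
Mediator peaks from Apobec1 to the start of Slc2a3 by distance from the Nanog transcript start (x axis, kb), with the percentile of each peak within its library as bar height (y axis, 0 to 100); the 4 upper tracks are MED1 and the 4 lower ones MED24, with 2 h in red above 0 h in blue and clones a and b in turn, and grey boxes are protein-coding gene spans. At Nanog the 2 h MED1 tracks hold 7 and 6 peaks and the 0 h tracks 14 and 16, while the single tall peak inside Apobec1 is taller at 2 h.

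The largest of these differences lay over the transcript start. The MED1 region chr6:122706500-122710828, which begins 0.989 kb before the start and reaches 3.339 kb into the gene, was covered for 725 and 792 bases at 2 h, against 4155 and 3145 bases at 0 h. Its percentile was 59.5 and 66.4 at 2 h, against 93.1 and 94.6 at 0 h. Counted from the strongest peak down, it ranked 17820th and 15897th at 2 h, against 2673rd and 2027th at 0 h. The groups did not overlap in either measure, and the mean percentiles were 62.9 ± 4.91 at 2 h and 93.8 ± 1.06 at 0 h (SD, n = 2 each). An exact permutation test (two-sided) had p = 0.333, the smallest value that 2 libraries against 2 can reach, so no single region can pass a threshold here, and the same holds for every region below.

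At 2 h the start itself held a peak of 469 bases in clone a and 792 bases in clone b, plus a weak one of 256 bases upstream in clone a. At 0 h Mediator ran on into the gene, as 1 peak of 4155 bases in clone a and as 4 peaks in clone b. The authors' fold enrichment of the strongest peak there was 5.07 and 5.68 at 2 h, against 10.5 and 12.1 at 0 h, each within its own list. The summit of that peak lay -0.053 and -0.089 kb from the start at 2 h, which is just upstream, against 0.157 and 0.159 kb at 0 h, just inside the gene. At 2 h the summits of clones a and b lay on either side of the octamer and SOX elements printed above, in bases 176 to 189 of the window. A relation between summits and these elements was not tested, and the MED24 lists give no summits.

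MED24 showed the same direction with a smaller difference. Its region over the start (chr6:122706634-122708478) stood at percentiles 80.8 and 72.4 at 2 h, against 96.0 and 95.8 at 0 h, and covered 745 and 831 bases at 2 h, against 1845 and 1407 at 0 h. Again neither measure overlapped between times. The difference in percentile was -30.9 for MED1 and -19.3 for MED24, and the difference between the proteins was not tested.

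Behind the region over the start few peaks were called at 2 h. Of 8 MED1 regions between 3.505 and 13.161 kb, 1 and 1 were called at 2 h, against 6 and 6 at 0 h. The 2 h call was in each clone the region chr6:122719597-122720650, retained at percentiles 20.7 and 0.0074 at 2 h, against 43.1 and 16.1 at 0 h, which overlap between the groups but were lower at 2 h within each clone. Lost regions lay at chr6:122711358-122711980 and chr6:122713530-122713864 inside the Nanog span and at chr6:122714717-122716474 behind it. For MED24, 5 regions lay behind its shorter start region, from 1.368 to 8.584 kb, of which 0 and 1 were called at 2 h, against 3 and 3 at 0 h. The one at chr6:122709834-122710834 was lost, and it overlapped the retained MED1 region over the start. The MED1 and MED24 counts thus cover different stretches. Peaks behind the start regions were weak throughout, none above the percentile 43.1 in MED1 or 18.4 in MED24 at 0 h.

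**Figure D2:**
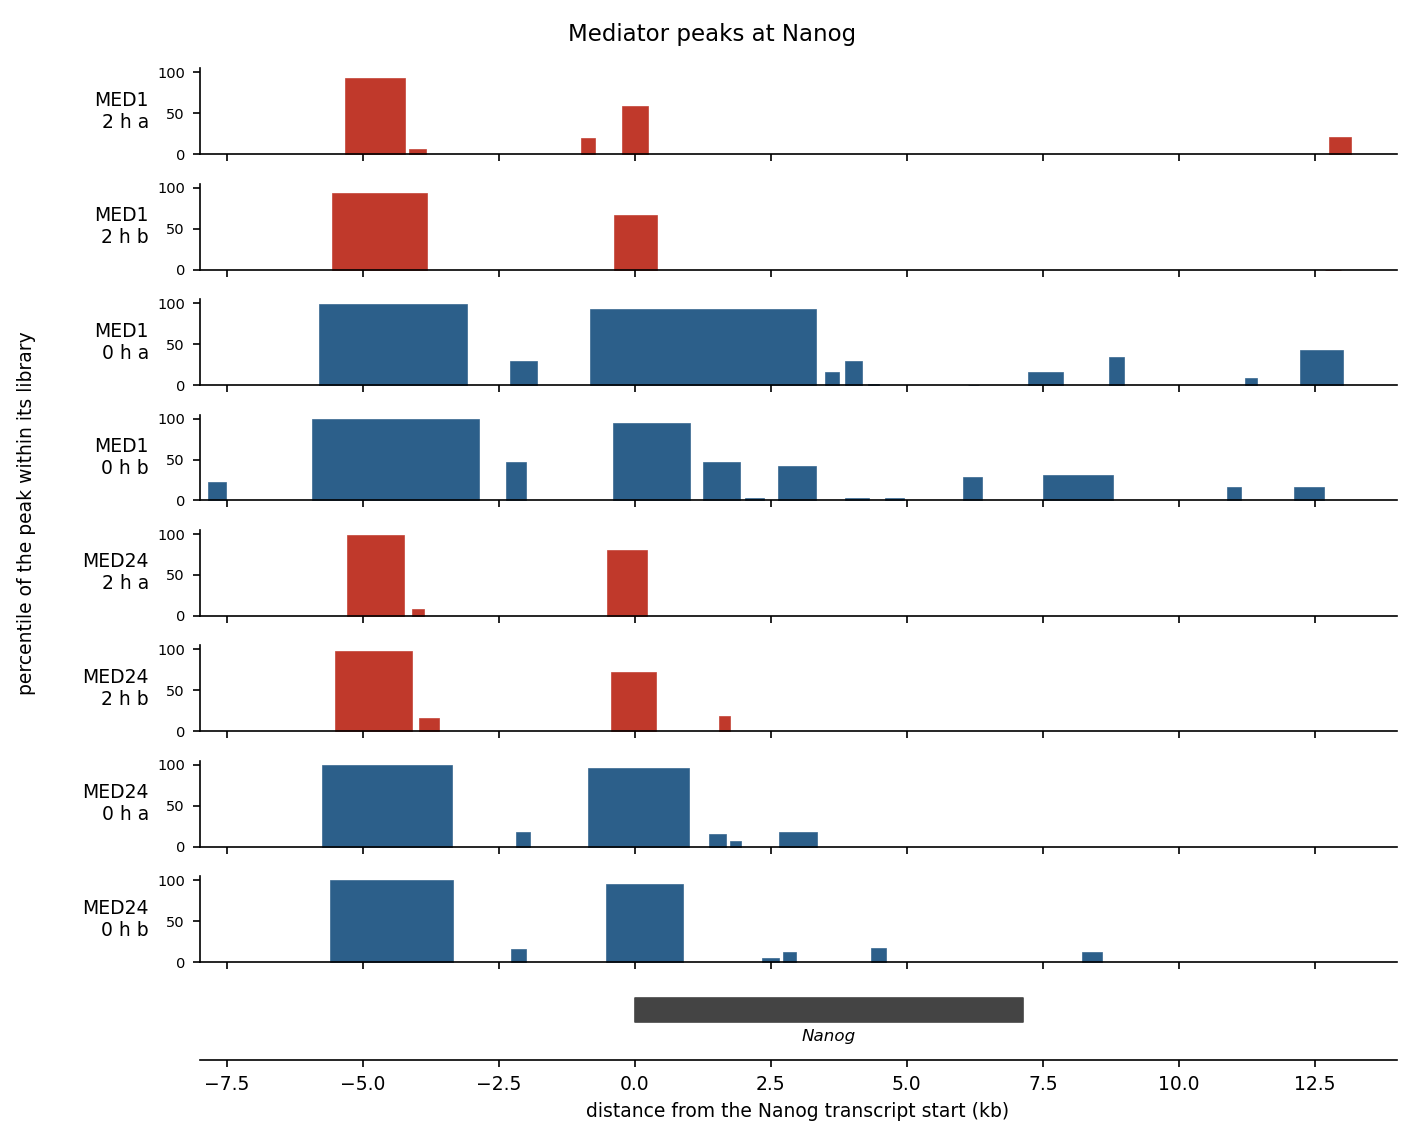
Peaks from 8 kb before to 14 kb behind the Nanog transcript start (x axis, kb), drawn as bars whose height is the percentile of the peak within its library (y axis), with 2 h (red) above 0 h (blue) for MED1 and then MED24; the grey box is the Nanog span. The bar over the start is 469 and 792 bases wide in the 2 h MED1 tracks, against 4155 and 1417 bases in the 0 h tracks, and the bars behind it number 1 and 1 in the 2 h MED1 tracks, against 8 and 9 in the 0 h tracks.

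The site of the gene with the highest percentile at 0 h in both proteins, and in MED24 also at 2 h, was the upstream enhancer region at chr6:122701559-122704629, -5.93 to -2.86 kb from the start. In this part of the locus lies the proximal upstream enhancer of Nanog. MED1 stood there at percentiles 92.9 and 93.1 at 2 h, against 99.5 and 99.3 at 0 h. Its rank from the top was 3119th and 3243rd at 2 h, against 186th and 260th at 0 h. The covered width was 1415 and 1753 bases at 2 h, against 2708 and 3071 bases at 0 h, and the authors' fold enrichment was 10.3 and 9.91, against 20.005 and 19.2. The summits stayed within 0.1 kb of each other, at -4.921 and -4.917 kb at 2 h, against -4.862 and -4.907 kb at 0 h.

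MED24 kept this enhancer among its very strongest sites. Its percentiles there (chr6:122701741-122704144) were 98.2 and 97.7 at 2 h, against 99.6 and 99.6 at 0 h, which is a rank of 772nd and 1122nd at 2 h, against 148th and 145th at 0 h. The width was 1271 and 1795 bases at 2 h, against 2392 and 2265 bases at 0 h. A small region between the enhancer and the start was lost in both proteins, MED1 at chr6:122705119-122705699 with 0 h percentiles of 29.2 and 47.5, and MED24 at chr6:122705212-122705562 with 18.4 and 16.0.

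A region farther upstream was higher in percentile and wider at 2 h in MED1. At chr6:122689438-122690663, -18.051 to -16.826 kb from the start, MED1 stood at percentiles 93.3 and 93.2 at 2 h, against 86.5 and 89.0 at 0 h, and covered 1057 and 1167 bases at 2 h, against 527 and 818 at 0 h. At 2 h it ranked 2950th and 3189th, slightly above the enhancer region nearer the start in both clones. The MED1 summit lay at -17.648 and -17.562 kb at 2 h, against -17.175 and -17.21 kb at 0 h. The compared peaks thus had their summits at different places within this merged region. MED24 covered more bases there as well (chr6:122689548-122690624), 1029 and 1001 at 2 h against 536 and 631 at 0 h, but its percentile was lower, 85.6 and 86.8 at 2 h against 89.8 and 90.5 at 0 h. MED24 also had a region at chr6:122693255-122693818, called in all 4 libraries at percentiles 70.6 and 50.1 at 2 h, against 73.2 and 79.4 at 0 h. MED1 had no region that overlapped it.

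The last retained MED1 region of Nanog, at chr6:122669433-122669944, stood at percentiles 37.7 and 0.791 at 2 h, against 42.8 and 19.2 at 0 h. These overlap between the groups, though the percentile was lower at 2 h within each clone, while its covered bases were higher without overlap, 418 and 293 at 2 h against 241 and 257 at 0 h. Over the 5 retained MED1 regions of Nanog, 2 had percentiles without overlap that were lower at 2 h and 1 that were higher, against 37.0% and 20.2% of all retained MED1 regions. All 4 retained MED24 regions of Nanog were lower at 2 h without overlap and 0 higher, against 32.0% and 29.5% of all retained MED24 regions.

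**Figure D3:**
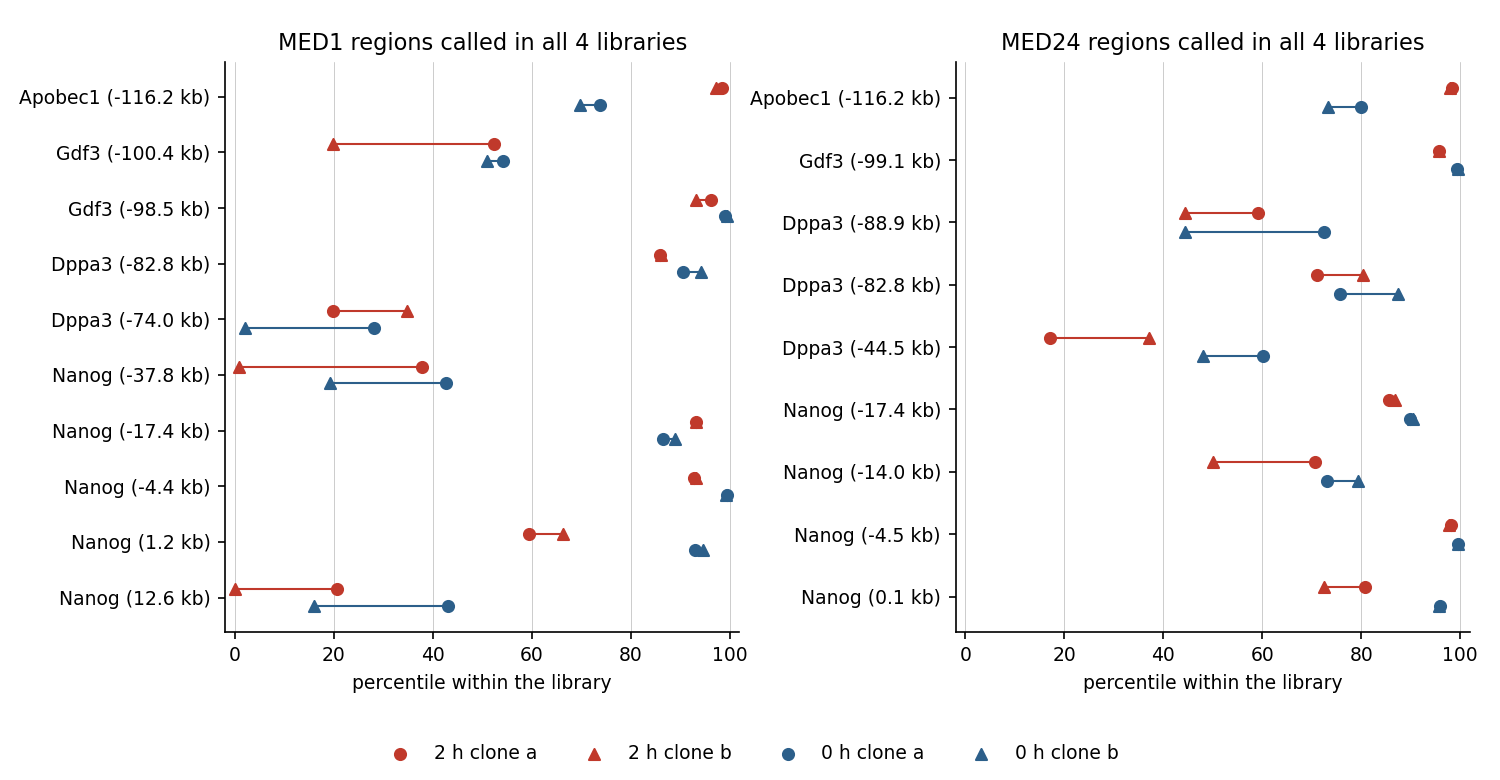
Percentile within the library (x axis, 0 to 100) of each region called in all 4 libraries, for MED1 on the left and MED24 on the right; rows are regions named by gene and by the distance of their middle from the Nanog start, circles are clone a, triangles clone b, red is 2 h (upper) and blue 0 h (lower), and a line joins the clones of a time. The region over the Nanog start and the one inside Apobec1 are far apart between times in opposite directions, while several weakly ranked regions have wide spreads between clones.

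Gdf3 differed in the same direction as Nanog, while its main region remained among the strong ones. The MED1 region over the gene, chr6:122607861-122610094, had percentiles of 96.3 and 93.2 at 2 h, against 99.1 and 99.5 at 0 h, and ranked 1629th and 3224th at 2 h, against 340th and 193rd at 0 h. Its covered bases were nearly the same, 2180 and 2126 at 2 h against 2206 and 2219 at 0 h. The adjoining MED1 region chr6:122606446-122607766 covered 412 and 677 bases at 2 h, against 1166 and 1321 at 0 h, with percentiles that overlap between the groups but were lower at 2 h within each clone (52.3 and 19.8 at 2 h, 54.1 and 51.0 at 0 h).

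In MED24 one region spanned both (chr6:122606607-122610075). It stood at 95.8 and 95.6 at 2 h, against 99.3 and 99.5 at 0 h, and covered 2386 and 2630 bases at 2 h, against 3469 and 3294 at 0 h. A region outside the Gdf3 span, on the side of Dppa3, was lost in both proteins. In MED24 it was strong before 4OHT (chr6:122612452-122612807, percentiles 79.5 and 82.2 at 0 h), and in MED1 it was weak (chr6:122612501-122612829, 24.8 and 22.2 at 0 h). A second lost MED1 region, chr6:122605319-122606018, had 0 h percentiles of 18.3 and 23.8. All Gdf3 regions together covered 2592 and 2803 bases of MED1 at 2 h, against 4234 and 4587 at 0 h, and 2386 and 2630 bases of MED24 at 2 h, against 3780 and 4006 at 0 h.

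Dppa3 differed less in covered bases. These overlapped between times in both proteins, with 1854 and 1430 of MED1 at 2 h against 1668 and 1869 at 0 h, and 1775 and 1662 of MED24 at 2 h against 2038 and 1773 at 0 h. MED24 coverage was lower at 2 h within each clone, with differences of -263 and -111 bases. Over retained MED24 regions the mean percentile difference was -13.2 at Dppa3 and -10.2 at Nanog, and the medians were -6.64 and -9.95. The strongest region of Dppa3, 1.38 kb from the gene span (chr6:122624355-122625046), had MED1 percentiles of 86.0 and 86.1 at 2 h, against 90.6 and 94.2 at 0 h. Its MED24 percentiles overlapped between the groups but were lower at 2 h within each clone, 71.2 and 80.4 at 2 h against 75.7 and 87.4 at 0 h. The one gained region of the locus lay at Dppa3, on the side of Nanog. It was gained in both proteins, 5.07 kb from the span in MED1 (chr6:122635339-122635664, percentiles 54.6 and 62.9 at 2 h) and at chr6:122635291-122635655 in MED24 (29.5 and 54.9 at 2 h). The MED24 gain was no longer called with the 20000 or 10000 strongest peaks or at a −log10 q of at least 10, and the MED1 gain no longer with the 10000 strongest peaks.

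Between Dppa3 and Nanog, at about -44.9 kb from the Nanog start, lies a distal enhancer that has been described to act on both genes. The MED24 region there, chr6:122662562-122663344, is nearest to Dppa3 by the rule and stood at percentiles 17.0 and 37.0 at 2 h, against 60.2 and 48.1 at 0 h, without overlap. The overlapping MED1 region chr6:122662550-122663393 was called at 2 h in clone a alone, at percentile 49.0, against 48.9 and 49.1 at 0 h. The neighbouring MED1 region chr6:122663827-122664148 was lost, with 0 h percentiles of 29.1 and 51.0. MED24 alone had a retained region 7.62 kb before the Dppa3 span (chr6:122618384-122618801), with overlapping percentiles of 59.2 and 44.3 at 2 h and 72.4 and 44.4 at 0 h. The remaining retained MED1 region of Dppa3 (chr6:122633314-122633712) also overlapped between times, at 19.8 and 34.8 at 2 h and 28.2 and 2.02 at 0 h.

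Apobec1 held the retained region with the largest difference in the other direction, in both proteins. Inside the gene span, at chr6:122590900-122591579, MED1 stood at percentiles 98.4 and 97.2 at 2 h, against 73.8 and 69.8 at 0 h. It ranked 696th and 1336th at 2 h, against 10118th and 11313th at 0 h, and covered 660 and 673 bases at 2 h, against 303 and 382 bases at 0 h. The means were 97.8 ± 0.877 at 2 h and 71.8 ± 2.84 at 0 h (SD, n = 2 each). MED24 gave nearly the same values at chr6:122590951-122591601, with percentiles of 98.3 and 97.9 at 2 h, against 79.9 and 73.3 at 0 h, and 629 and 590 covered bases, against 366 and 302. The MED1 region over the transcript start of Apobec1, chr6:122602136-122602646, was lost, with 0 h percentiles of 19.6 and 31.1. The other 4 MED1 regions of the gene were called only in the 0 h library of clone a, so the covered bases of Apobec1 at 0 h, 1568 in clone a and 799 in clone b, differed between clones, against 660 and 673 at 2 h.

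**Figure D4:**
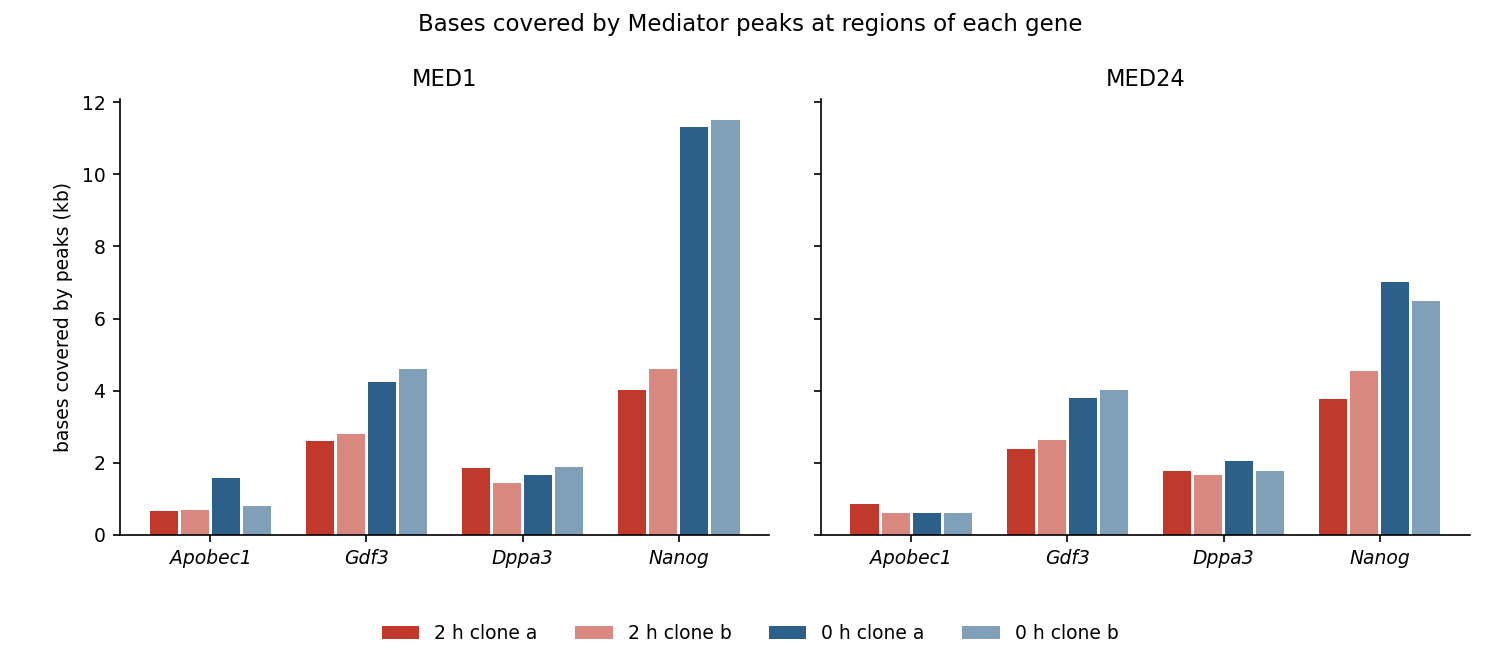
Bases covered by peaks (y axis, kb, from 0) at all regions assigned to each gene, for MED1 on the left and MED24 on the right, as 1 bar per library, with 2 h (red) left of 0 h (blue) and clone b in the paler shade. The 2 h bars are below both 0 h bars at Nanog and Gdf3 in both proteins, with MED1 at Nanog at 4011 and 4610 bases against 11311 and 11519 bases, while the bars of Dppa3 lie close together.

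Counted over the whole locus, 8 of 35 MED1 regions were lost (22.9%), against 6.90% of all MED1 regions, and 1 was gained (2.86%), against 17.6% of all. The share retained was 28.6%, close to 30.9% of all. Of the remaining 16 regions, 14 were called in 1 library, and 12 of the 16 only at 0 h and 2 only at 2 h. In MED24 3 of 26 regions were lost (11.5%), against 8.83% of all MED24 regions, 1 was gained (3.85%), against 16.0%, and 9 were retained (34.6%), against 32.6%. The lost MED1 regions were weak at 0 h, with percentiles from 0.149 to 51.0 and a median of 28.9. With only peaks of −log10 q of at least 10, no MED1 region was lost, and with lists of the 20000 strongest peaks 2 were. Both 2 h lists of MED1 were longer than its 0 h lists. A loss needs a call in every 0 h library: without clone a at 0 h 16 MED1 and 9 MED24 regions were lost, and without clone b at 0 h 19 and 6.

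Among the 10 retained MED1 regions, 4 had lower and 2 had higher percentiles at 2 h without overlap, against 37.0% and 20.2% of all retained MED1 regions, which is near the background. Within clones, 7 were lower and 2 higher at 2 h in both, against 44.2% and 24.3% of all. Covered bases were lower in 5 and higher in 4, against 28.2% and 23.1% of all. Among the 9 retained MED24 regions 6 were lower in percentile and 1 was higher, against 32.0% and 29.5% of all. Within clones, 8 were lower and 1 higher in both, against 36.8% and 34.4% of all. Covered bases were lower in 5 and higher in 2, against 26.8% and 26.9%. The median percentile difference over the retained regions was -6.36 in MED1, against -3.24 over all 20152, and -5.79 in MED24, against -0.354 over all 21529. Leaving out 1 library moved the mean difference in MED1 (-5.20) to -1.44 without clone b at 2 h, to -0.903 without clone a at 0 h, to -8.81 without clone a at 2 h and to -9.01 without clone b at 0 h.

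Most retained regions held both subunits. Of the 10 retained MED1 regions 9 overlapped a MED24 region, against 98.1% of retained MED1 regions in the genome, and of the 9 retained MED24 regions 7 overlapped a MED1 region, against 96.4%. Over all 35 MED1 regions 57.1% overlapped MED24, against 77.5% of MED1 regions in the genome, and over all 26 MED24 regions 80.8% overlapped MED1, against 78.4%. No locus region was gained in one protein and lost in the other.

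When peaks of a library were joined over the gap length that is customary for super-enhancers, the MED1 cluster that held the Nanog start covered 3197 and 9955 bases at 2 h, against 19182 and 16839 bases at 0 h. By covered bases it ranked 1171st of 24061 clusters in clone a and 147th of 25135 in clone b at 2 h, against 18th of 21309 and 25th of 20935 at 0 h. The clone b cluster of 2 h and both clusters of 0 h ran on into Slc2a3, the gene of a glucose transporter behind Nanog, and that of clone a at 2 h ended 0.24 kb behind the start. Of MED24 the 0 h cluster of clone b reached as far. In MED1 of clone a at 2 h the next peak began 12.766 kb behind the start, a gap only just too long to be joined. In clone b at 2 h the peaks on either side, ending at 0.41 kb and beginning at 12.682 kb, were still joined. The rank of 1171st therefore depends on the gap length and belongs to a shorter stretch. Only the clone b cluster of 2 h (147th) spans a stretch like those of the MED1 clusters at 0 h. The MED24 cluster covered 3459 and 4272 bases and ranked 755th of 23947 and 653rd of 26403 at 2 h, against 7005 and 9512 bases and ranks of 185th of 23875 and 79th of 22447 at 0 h. In clone b this again compares unlike stretches, of 19.63 kb at 2 h and 55.23 kb at 0 h. The cluster with Gdf3 ranked 1697th and 1693rd in MED1 at 2 h, against 300th and 329th at 0 h. It held 2 and 3 peaks at 2 h, against 13 and 9 at 0 h, when it also held peaks of Dppa3 and Apobec1. These MED1 ranks therefore compare unlike stretches. In MED24, where it held Dppa3 peaks at both times, it ranked 451st and 775th at 2 h, against 312th and 378th at 0 h. In clone b it was 28.95 kb long at 2 h and 18.15 kb at 0 h.

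Regions behind Nanog that fall to Slc2a3 were also often lower in MED1. Of 9 retained MED1 regions 6 had lower percentiles at 2 h without overlap and 0 higher, against 37.0% and 20.2% of all retained MED1 regions. Of 9 retained MED24 regions 3 were lower, near the 32.0% of all retained MED24 regions, and 1 was higher, against 29.5%. The MED1 region at chr6:122772476-122773220, for example, stood at 29.4 and 24.8 at 2 h, against 63.6 and 54.4 at 0 h. The widest MED1 region, from 54.205 to 59.99 kb behind the Nanog start (chr6:122761694-122767479), at the position of the distal downstream enhancer, stood at 95.9 and 96.4 at 2 h, against 97.3 and 91.9 at 0 h, which overlap, and covered 5015 and 5183 bases, against 5609 and 5654. A region 51.258 kb behind the start was gained in both proteins, with MED1 percentiles of 84.8 and 85.4 at 2 h (chr6:122758747-122759206) and MED24 percentiles of 76.3 and 70.1. Slc2a3 had 2 gained and 2 lost MED1 regions of 26, against 17.6% gained and 6.90% lost of all MED1 regions. In MED24 it had 1 and 1 of 16, against 16.0% and 8.83% of all.

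Other genes linked to these functions were counted from lists, naming those with the largest net counts over both proteins, to be read against the shares over all regions given above. Of the 15 other naive pluripotency genes, 8 had more lost than gained MED1 regions and 3 more gained, with 34 lost and 23 gained of 208 regions (16.3% and 11.1%). In MED24 33 were lost and 21 gained of 200 (16.5% and 10.5%). Esrrb, an orphan nuclear receptor gene, lost 7 and 9 regions in MED1 and MED24 and gained 2 and 4. Tfcp2l1 lost 4 and 3 and gained none, and Klf2 lost 4 and 4 and gained 1 and 1, all encoding transcription factors. In the opposite direction, Zfp42, the gene of the marker REX1, gained 5 and 5 and lost 1 and 0, and Klf5 gained 5 and 4 and lost 1 and 2. For the Nodal pathway, in which GDF3 acts, 12 MED1 regions were lost and 10 gained of 80, and 10 and 8 of 69 in MED24. The co-receptor gene Tdgf1 lost 2 and 2 and gained none. The inhibitor genes Lefty1 and Lefty2 lost 3 and 3 (gained 1 and 1) and 3 and 0 (gained none). Skil, which encodes a Smad repressor, gained 3 and 4 and lost none, and Smad3, a signal transducer gene, gained 4 and 2 and lost 1 and 2.

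Over the genome, 6.90% of MED1 regions were lost and 17.6% gained, and 8.83% and 16.0% of MED24 regions. The germ cell list without Nanog and Dppa3 had 19 lost and 13 gained MED1 regions of 126, and 15 and 17 of 122 in MED24. Tfap2c, a germ line and trophoblast factor gene, lost 10 and 4 and gained 2 and 1, and Alpl, the alkaline phosphatase gene, lost 3 and 2 and gained 0 and 1. Prdm1, the gene of a germ cell repressor, gained 3 and 5 and lost 1 and 1, and Dazl, a germ cell RNA-binding protein gene, gained 2 and 1 and lost none. In the Apobec family list no MED1 region was gained and 5 were lost of 34, with Apobec3, a deaminase gene that restricts retroviruses, at 4 lost and Apobec2 at 1. MED24 had 3 gained and 3 lost of 36, with Apobec2 at 2 lost and none gained, and Apobec3 at 1 gained and none lost. The other MED24 gains lay at Rbm47 (2 gained, none lost) and the other loss at A1cf (1 lost, none gained). Rbm47 and A1cf are on the list but are not deaminase genes. Neighbours of the locus had 6 lost and 6 gained MED1 regions of 59 and 4 and 4 of 52 in MED24, with Phc1, a Polycomb gene, at 2 lost in each and 0 and 1 gained. Core pluripotency genes had 9 lost and 23 gained MED1 regions of 157 (5.73% and 14.6%), and 16 and 22 MED24 regions of 152 (10.5% and 14.5%). These are near the shares over the genome. Jarid2, another Polycomb gene, had 7 and 6 gained and 1 and 5 lost in MED1 and MED24. ERK feedback genes, listed for the direction opposite to Nanog, had 4 lost and 53 gained of 175 MED1 regions and 5 and 44 of 168 MED24 regions, with Phlda1 at 10 and 9 gained and none lost. Primitive endoderm genes had 4 lost and 18 gained of 67 MED1 regions (5.97% and 26.9%) and 6 and 18 of 69 MED24 regions (8.7% and 26.1%), with Sparc at 5 and 5 gained and none lost. Cubn had 3 and 4 gained and none lost. Col4a1 had 5 and 4 gained and 2 and 2 lost, and Col4a2 had 2 and 3 gained and 1 and 0 lost. The regulator genes Gata6 and Sox17 had no gained region in either protein, and Gata4 had 0 and 1. Fibroblast genes had 1 lost and 5 gained MED1 regions of 14 and 1 and 3 MED24 regions of 16, with Twist1 at 2 and 1 gained, and their part in the locus results was not tested.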

How the data were processed

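The 8 peak lists, 4 for each protein, were used as deposited; the 4 input samples were not used here. Bowtie2, bedtools, MACS2 and build mm10 appear in the submitters' processing notes; which settings and versions were chosen, and how inputs entered, is not given in the sources used here. For each MED1 peak the authors deposited −log10 p, −log10 q, a ratio of enrichment (fold) and a score. In 100% of MED1 peaks this score equalled −log10 q times 10 after rounding down. For MED24 the deposited strength is a score alone, which was read in the same way although nothing states it. The MED24 peak names carry FLAG and the folder name of another cofactor, EP300, and the labels were followed. No list gives read numbers, so no counting error can be attached to a peak.

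Merging, assignment, percentiles and clusters were computed in Python 3.11.15 with numpy 2.4.6 and pandas 2.3.3, tested on simulated lists, and drawn with matplotlib 3.10.9. Genes came from a RefSeq table of GRCm38.p6 (mm10) with spans of 21887 protein-coding genes and no exons. It gave 91.6% of MED1 and 90.7% of MED24 regions a gene. Where several genes were equally near, the larger overlap decided, then the nearer gene end. Times were compared by whether the 2 libraries of one time lay beyond both of the other, with an exact permutation test per region. Nothing in the labels says that clones a and b are more than separate clones of 1 line, so differences measure the spread between these clones. The clone letter pairs the libraries, because each clone was sampled at both times. Alternatives were equal numbers of peaks, a stricter threshold, other overlaps, widths, assignments and rank measures, each library left out, and the comparison within clones.

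The 4 genes, the lists and the tests were chosen with earlier results of these data known. Counts of regions that differed in the same direction within both clones were added after the values had been seen. The regions named in full are the gained, the lost and, per protein, up to 5 retained regions with the best mean percentile and up to 5 with the largest difference of one sign in both clones; every other retained region is named as well. Of the naive pluripotency, Nodal, germ cell, Apobec family and primitive endoderm lists, up to 4 genes with the largest net count of gained and lost regions are named. There was 1 more where a tie fell on the last place (Klf2 and Klf5, Lefty2 and Smad3). Gata6, Sox17 and Gata4 are named besides, as regulators. Of the core pluripotency, neighbour, ERK feedback and fibroblast lists only the gene with the largest net count is named.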

Additional observations from a re-analysis of the deposited data

Results flagged for a closer look

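At the region about 17 kb before the Nanog start the subunits moved in opposite directions in rank. The MED1 percentile was higher at 2 h than at 0 h in both clones, by a mean of 5.52 points, and the MED24 percentile was lower in both, with a mean difference of -3.96 points. Covered bases were higher at 2 h in both proteins and both clones. The MED1 summit lay farther upstream at 2 h than at 0 h in both clones, so the ranks compare peaks with differently placed summits. The difference between the proteins was not tested.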

How the results depend on the processing

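The lower MED1 and MED24 coverage of the locus at 2 h kept its sign under every alternative run. The MED1 difference of -9461 bases became -5115 and -3274 with the 20000 and 10000 highest ranked peaks, -4278 at −log10 q of at least 10, -7014 with windows of fixed width and -9043 with genes within 20 kb, where fewer or narrower peaks enter. The MED24 difference of -4046 bases became -1503 with such windows. Without 1 library they ran from -9660.5 to -9261.5 and from -4360.5 to -3731.5 bases.

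Lost MED1 regions (8) numbered 2, 1 and 0 with 20000 peaks, 10000 peaks and the stricter threshold, and 8 to 19 without 1 library. Retained MED1 regions (10) numbered 6, 4 and 6. With 10000 peaks the 1 gained MED1 region was the one inside Apobec1 and not the one at Dppa3. Gained MED24 regions (1) numbered 0 under all 3 of these settings, lost ones (3) 1 and retained ones (9) 3 with 10000 peaks. Without 1 library MED1 gains numbered 1 to 2, MED24 gains 1 to 2 and MED24 losses 3 to 9. The mean percentile difference in MED1 (-5.20) was -9.81, -17.4 and -3.10 under the same 3 settings, -4.47 within 20 kb and -4.86 by fold enrichment, and -9.01 to -0.903 without 1 library. In MED24 (-6.95) it was -16.2 with 10000 peaks, -5.58 at the stricter threshold, -4.43 within 20 kb and -7.75 to -5.25 without 1 library. Beyond what the construction of each setting gives, the cause was not tested.

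With the clone as a replicate block, the paired counts averaged 2 gained and 14.5 lost in MED1 and 3 gained and 7.5 lost in MED24, since a call in 1 clone then suffices, with a MED24 mean difference of -5.84. Of 214 values of single retained regions, 207 kept their sign. The settings for overlap, fixed windows, gene assignment and the clone block returned the main value for every region. A kept sign under those settings therefore tells nothing, and only the peak sets, fold enrichment and left-out libraries could reverse one. The 7 that reversed were weak or overlapping regions. MED1 at Dppa3 (chr6:122633314-122633712) gave -0.806 by fold enrichment and -0.937 to 25.3 without 1 library, and MED1 at Nanog (chr6:122669433-122669944) -30.2 to 6.77 without 1 library, including 0.0985 without clone a at 0 h. MED24 at Dppa3 gave -20.7 to 7.37 without 1 library, including 0.788 without clone b at 2 h (chr6:122618384-122618801), and -11.6 to 0.0390 (chr6:122624385-122624958). With 2 libraries a time and unknown depth, an uncalled peak may be weak and not absent.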
